A study of Mus musculus with 8 samples.

Results

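The 9 genes described here encode the enzymes that make serine from glycolytic carbon and pass its carbon into the folate cycle: Phgdh, Psat1, Psph, Shmt1, Shmt2, Mthfd1, Mthfd2, Mthfd1l and Aldh1l2. They were found on the microarray by the RefSeq accession of each probe, which gave 14 probes of 55681 non-control probes, with 2 probes each for Phgdh, Psat1, Psph, Shmt1 and Mthfd1l and 1 probe for each of the others. All 14 probes were well above background on all 8 arrays, so all 9 genes were among the 26262 genes tested. RNA was hybridised to 8 one-colour Cy3 arrays, with 2 arrays in each of 4 groups. The groups were the 2/4 clone with retinoic acid (RA), the untreated 2/4 clone, parental N18TG2 cells with RA and untreated parental N18TG2 cells. N18TG2 is a mouse neuroblastoma line, and the 2/4 clone carries the same line name and is labelled as making choline acetyltransferase (ChAT), which forms the transmitter acetylcholine. The labels state 1 µM all-trans RA, a vitamin A derivative, in differentiation medium at 1% serum, 10% serum for growth, and G418 (200 µg/mL) for the clone only. The clone is 1 clone, so what is particular to it and what follows from ChAT cannot be told apart. The labels do not give the medium of the untreated cells or the length of the treatment, so lower serum may go with RA. Whether replicate arrays stem from separate cultures is not stated, and the p-values then measure only the spread between these samples. In bulk RNA, fewer cells making a transcript and less of it per cell cannot be told apart.

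As background, serine synthesis branches from glycolysis in 3 steps, taken in turn by Phgdh (3-phosphoglycerate dehydrogenase), Psat1 (phosphoserine aminotransferase) and Psph (phosphoserine phosphatase). The serine hydroxymethyltransferases Shmt1, in the cytosol, and Shmt2, in mitochondria, move a carbon of serine to tetrahydrofolate and release glycine. In mitochondria, Mthfd2 oxidises this unit and Mthfd1l then releases it as formate, and Aldh1l2 burns the 10-formyl form to carbon dioxide with the production of NADPH. In the cytosol, the trifunctional enzyme Mthfd1 takes up formate for purine and thymidylate synthesis. Several of these genes, among them Phgdh, Psat1, Shmt2, Mthfd2 and Aldh1l2, are known targets of the transcription factor ATF4, which responds to amino acid shortage and stress of the endoplasmic reticulum. Proliferating tumour cells use the pathway to make nucleotides.

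The promoters of the 3 serine synthesis genes are shown because these genes fell together in the clone with RA. The sequences are the 250 bases before the annotated start of each gene (RefSeq, GRCm38.p6, minus strand in each case), cut from windows at chr3:98339920-98340219 for Phgdh, chr19:15925010-15925309 for Psat1 and chr5:129787204-129787503 for Psph. Capitals mark matches on either strand to the CCAAT box CCAAT, the GC box GGGCGG and the TATA box TATAAA.
Phgdh promoter: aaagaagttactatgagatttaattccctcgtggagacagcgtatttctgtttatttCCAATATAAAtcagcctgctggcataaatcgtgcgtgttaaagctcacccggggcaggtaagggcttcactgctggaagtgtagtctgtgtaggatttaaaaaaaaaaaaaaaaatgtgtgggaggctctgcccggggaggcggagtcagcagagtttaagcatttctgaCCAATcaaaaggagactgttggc
Psat1 promoter: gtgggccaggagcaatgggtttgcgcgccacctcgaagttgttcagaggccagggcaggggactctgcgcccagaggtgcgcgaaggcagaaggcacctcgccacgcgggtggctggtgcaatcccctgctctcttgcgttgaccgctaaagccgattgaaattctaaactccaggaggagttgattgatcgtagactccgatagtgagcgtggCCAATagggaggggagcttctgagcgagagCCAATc
Psph promoter: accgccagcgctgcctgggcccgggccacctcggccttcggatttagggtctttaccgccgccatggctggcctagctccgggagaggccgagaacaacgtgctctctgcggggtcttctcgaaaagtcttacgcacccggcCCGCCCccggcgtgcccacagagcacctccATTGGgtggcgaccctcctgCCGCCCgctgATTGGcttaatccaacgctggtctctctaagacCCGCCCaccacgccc
RefSeq lists a further Psat1 start, whose window held 2 GC boxes, 1 of them wholly before the start, and is not shown. The Phgdh window held 2 CCAAT boxes and 1 TATA box, which shares a base with the first of them, the Psat1 window 2 CCAAT boxes, and the Psph window 2 CCAAT boxes and 3 GC boxes before the start. Over all promoter windows of the same length plus 50 bases after the start, 37.4% held a CCAAT box, 35.7% a GC box and 13.6% a TATA box, so matches of this kind are common. The letters TGATGNAA, which resemble the element bound by ATF4 with its partners, and the E-box CACGTG were in none of the windows of the 8 members with an entry, against 3.97% and 7.15% of all windows. A window without these letters says nothing of sites elsewhere in the gene.

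The 8 arrays shared 1 slide and 1 scan. The clone RA and untreated parental arrays sat in row 2 and the other groups in row 1. Within a line row and RA therefore cannot be told apart, nor row and line within a treatment. A difference between the lines in their RA response has the same layout as row 2 minus row 1 and cannot be told apart from it. Only in the averages does row cancel. The array clone RA replicate 1 stood apart, where 72.13% of non-control spots cleared background, compared with 48.65% to 63.28% on the other 7, and its correlation with its replicate across genes was r = 0.9625, against 0.983 to 0.9873 in the other pairs. For the 9 genes, however, the arrays of the clone RA pair differed by at most 0.5 on the log2 scale, and the widest gap of a pair was 1.00, for Shmt2 between the parental RA arrays. The Chat probe did not settle the label of the clone, since the untreated lines differed in it by 0.379 on the log2 scale (limma adjusted p = 0.897). The extraction protocol names hippocampus. All 10 markers of sympathoadrenal neuroblastoma were well above background on both arrays of each group, whereas 4 to 6 of 8 markers of hippocampal neurons were on neither array of a group, Prox1, Neurod6 and Emx2 in all 4 groups. Astrocytes, which are known for high Phgdh, had 3 of 6 markers well above background on both arrays in each group, and Slc1a2 was well above background on no array. The summed scaled intensity of the astrocyte list was 9.8 to 9.9 with RA and 7.5 to 8.55 without in the clone, and 2.38 to 4.21 with RA and 11.3 to 11.8 without in the parental line. Of other lists, 4 or 5 of 6 oligodendrocyte and Schwann cell markers were well above background on both arrays of a group. The same held for 2 to 4 of 6 microglia and vessel markers and 2 to 4 of 5 fibroblast markers. Summed scaled intensity over these lists was 0.224 to 2.13, and 95.2 to 511 for the sympathoadrenal list. Many spots cleared background on every array, so such counts do not by themselves identify a cell type. The part of other cell types in the results below was not tested.

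In the clone with RA, all 3 genes of serine synthesis and the mitochondrial folate enzyme gene Aldh1l2 fell relative to the untreated clone, by 2.88-fold to 6.45-fold. Each of the 9 genes read lower on both clone RA arrays than on both untreated clone arrays, and 4 of 9 passed the test, all in that direction. Calls are limma tests over all genes at an adjusted p (Benjamini-Hochberg) under 0.05, which found 2.05% of genes lower in this comparison, and 28.6% of all genes had both clone RA arrays below both untreated clone arrays. The median log2 difference of the 9 genes was -1.46, against 0.018 over all genes tested. With each array centred on its median instead, the median over all genes was -0.701, that of the 9 was -2.18, and the calls over all genes split into 236 higher and 759 lower, against 677 and 539. Values below are log2 intensities scaled to the 75th percentile of each array, and every difference is on that log2 scale with its standard error from the limma fit (n = 2 arrays per group).

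**Figure D1:**
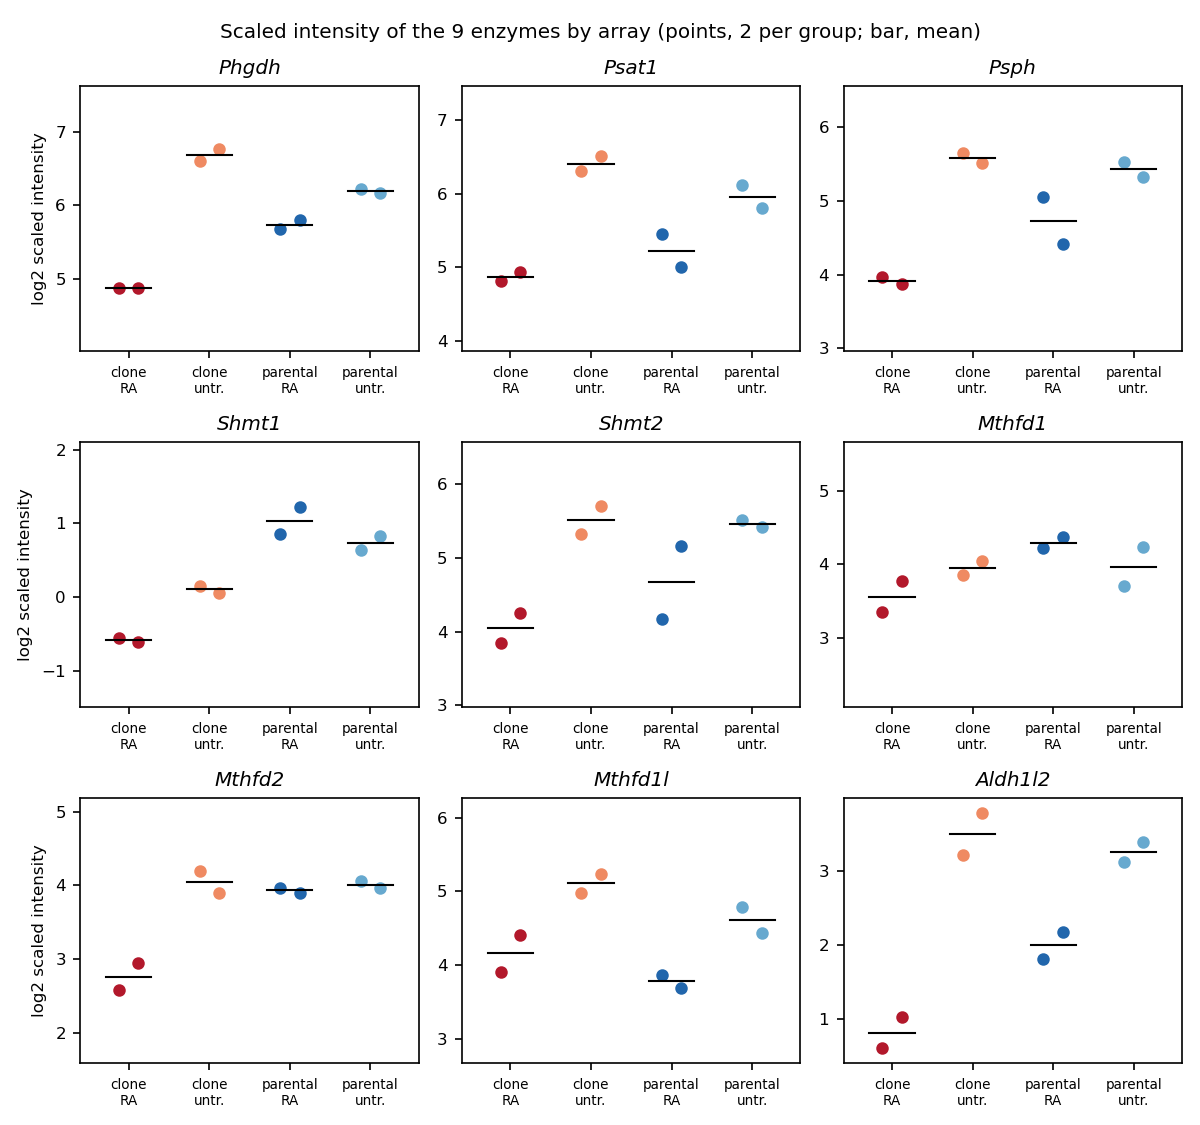
Log2 scaled intensity (y axis, spanning 3.6 units in every panel) of the probe that stands for each of the 9 genes, by group (x axis), with a point for each array and a bar at the mean of 2 arrays. The clone RA arrays are the lowest group by mean in 8 panels, as for 28.8% of 26210 genes. In the Mthfd1l panel the parental RA arrays are lowest, as for 26.3% of those genes.

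Phgdh, the enzyme of the first step, read 4.88 and 4.88 on the clone RA arrays and 6.60 and 6.76 on the untreated clone arrays. In the parental line it read 5.68 and 5.80 with RA and 6.22 and 6.17 without. The replicates lay close together and no groups overlapped, with clone RA lowest and the untreated clone highest. In the clone the difference was -1.80 ± 0.25, a 3.48-fold fall (adjusted p = 0.021). Psat1, of the second step, read 4.81 and 4.94 in the clone with RA and 6.30 and 6.51 without, and in the parental line 5.45 and 5.00 with RA and 6.11 and 5.80 without. Its fall in the clone was 2.88-fold (-1.53 ± 0.29, adjusted p = 0.0369). Psph, which releases free serine, had the same order. It read 3.97 and 3.87 in the clone with RA and 5.65 and 5.52 without, and 5.05 and 4.41 in the parental line with RA and 5.53 and 5.33 without. In the clone it fell 3.17-fold (-1.66 ± 0.31, adjusted p = 0.0343), while the untreated arrays of both lines overlapped.

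Of the mitochondrial enzymes, Aldh1l2 had the largest difference of the 9 genes. It read 0.60 and 1.02 in the clone with RA and 3.22 and 3.79 without, a 6.45-fold fall (-2.69 ± 0.33, adjusted p = 0.0181). In the parental line it read 1.81 and 2.18 with RA and 3.13 and 3.40 without, so the RA arrays were low in both lines and lowest in the clone. Mthfd2 read 2.58 and 2.94 in the clone with RA and 4.19 and 3.89 without, and 3.96 and 3.90 in the parental line with RA and 4.06 and 3.96 without. Only the clone RA pair stood apart for this gene, and its difference of -1.28 ± 0.28 in the clone just missed the test (adjusted p = 0.0503). Shmt2 read 3.85 and 4.26 in the clone with RA and 5.33 and 5.70 without (-1.46 ± 0.39, adjusted p = 0.0876). Its parental RA arrays disagreed, at 4.17 and 5.17, against 5.51 and 5.42 in untreated parental cells. Mthfd1l, which makes formate at the last mitochondrial step, read 3.91 and 4.41 in the clone with RA and 4.97 and 5.24 without (-0.94 ± 0.31, adjusted p = 0.135), and 3.87 and 3.69 in the parental line with RA and 4.78 and 4.43 without. It was the only member with the lowest mean in parental cells with RA.

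The cytosolic enzymes had the smallest differences with RA in the clone. Shmt1 read -0.56 and -0.61 in the clone with RA and 0.15 and 0.06 without (-0.69 ± 0.27, adjusted p = 0.2). In the parental line Shmt1 read 0.85 and 1.22 with RA and 0.64 and 0.83 without, so every clone array was below every parental array. Mthfd1 read 3.35 and 3.77 in the clone with RA and 3.85 and 4.04 without (-0.38 ± 0.31, adjusted p = 0.519), and 4.22 and 4.37 in the parental line with RA and 3.71 and 4.23 without. Neither cytosolic gene passed the test for RA in either line.

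The calls for RA in the clone changed when arrays were left out, although the differences moved little. Without any 1 array, the difference lay between -1.88 and -1.72 for Phgdh, -1.63 and -1.42 for Psat1, -1.73 and -1.60 for Psph and -2.97 and -2.41 for Aldh1l2. All 4 calls ended without untreated clone replicate 1 or 2 (adjusted p from 0.106 to 0.25). Without clone RA replicate 1, Aldh1l2 was still called (adjusted p = 0.0392), while Phgdh, Psat1 and Psph had adjusted p of 0.0536, 0.111 and 0.0845. Without either untreated parental array the calls of Phgdh (0.0519), Psat1 (0.074) and Psph (0.0728) also ended, and without clone RA replicate 2 or either parental RA array all 4 were kept. With no filter on dim probes, or with only the clone groups fitted, 0 of 9 were called by limma, with 7 and 8 at an unadjusted p under 0.05. The share of all genes at that unadjusted threshold is not given, so the 7 and 8 have no background beside them.

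**Figure D2:**
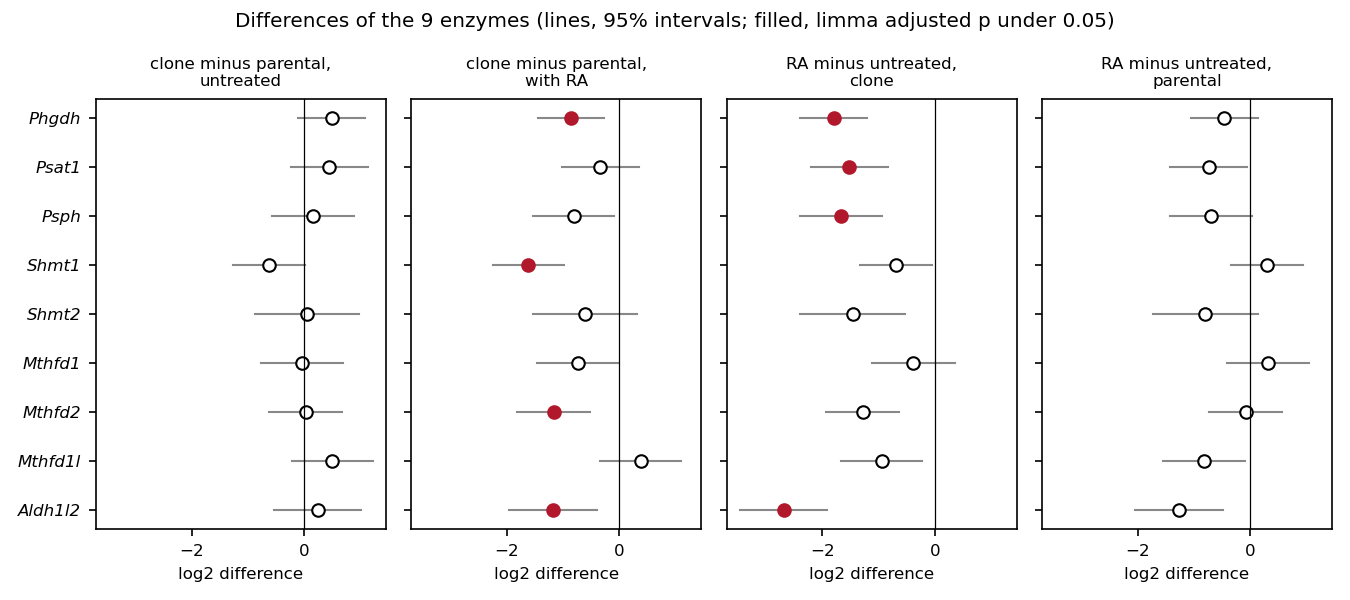
Log2 differences (x axis) of the 9 genes (y axis) in 4 comparisons, as points with 95% intervals from the limma fit; filled points have an adjusted p under 0.05. With RA in the clone, 4 filled points lie at -2.69 to -1.53, and in the comparison of the untreated lines all 9 points are open, between -0.63 and 0.50.

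With RA in the parental line, 7 of the 9 genes had negative differences, but none passed the limma test (0 of 9 called, against 1.12% of all genes, with 3 of 9 at an unadjusted p under 0.05). The 1.12% is for adjusted p, and no share of all genes is given for the unadjusted count. Both RA arrays read below both untreated arrays for 6 genes, against 20.8% of all genes, and above them for Shmt1, as for 23.4% of all genes. The largest difference was that of Aldh1l2 at -1.27 ± 0.33 (adjusted p = 0.135). Mthfd1l was at -0.83 ± 0.31, Shmt2 at -0.80 ± 0.39, Psat1 at -0.73 ± 0.29, Psph at -0.70 ± 0.31 and Phgdh at -0.46 ± 0.25 (adjusted p from 0.279 to 0.492). Mthfd2 was at -0.08 ± 0.28, with a 95% interval from -0.73 to 0.57, and Shmt1 and Mthfd1 were at 0.30 ± 0.27 and 0.32 ± 0.31. The median of the 9 genes was -0.70, against 0.021 over all genes. With a trended and robust variance, Aldh1l2 was called (adjusted p = 0.0458).

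Whether RA acted differently in the lines was tested as the interaction, the RA difference in the clone minus that in the parental line. On this slide the interaction is also the difference between the slide rows, so a line effect on the RA response and a row effect cannot be told apart. All 9 interactions were negative, from -1.42 to -0.12, and none was called by limma (0 of 9, against 0.206% of all genes, with 4 of 9 at an unadjusted p under 0.05). The 0.206% is for adjusted p, and no share of all genes is given for the unadjusted count. Aldh1l2 had -1.42 ± 0.47 (95% interval -2.53 to -0.32, adjusted p = 0.243), Phgdh -1.34 ± 0.35 (-2.18 to -0.51, adjusted p = 0.17) and Mthfd2 -1.20 ± 0.39 (-2.12 to -0.28, adjusted p = 0.238). The smallest interaction called for any gene measured 3.07 on the log2 scale, and all 9 interactions here were smaller. A stronger response of the clone was therefore not shown for any of the 9 genes. The Mthfd1l interaction of -0.12 ± 0.43 turned to 0.20 with quantile normalization.

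Averaged over both lines, where slide row cancels, the serine branch and Aldh1l2 were again lower. With RA, Phgdh (-1.13 ± 0.18, adjusted p = 0.0211), Psat1 (-1.13 ± 0.21, 0.0299), Psph (-1.18 ± 0.22, 0.0306) and Aldh1l2 (-1.98 ± 0.23, 0.0119) fell in the limma test of the average. These 4 of 9 compare with 2.7% of all genes lower. For 6 genes, the same 4 with Shmt2 and Mthfd1l, all 4 RA arrays read below all 4 untreated arrays, against 3.44% of all genes. On their second probes Phgdh and Psph kept this order, while for Psat1 and Mthfd1l the RA and untreated arrays overlapped. The second Psat1 probe was at -0.69 ± 0.37 (limma adjusted p = 0.336, adjusted over all probes kept). With the mean of its probes Psat1 was at -0.91 and no longer called (0.0542). Shmt2 was at -1.13 ± 0.28 (adjusted p = 0.0645), Mthfd1l at -0.89 ± 0.22 (0.0638) and Mthfd2 at -0.68 ± 0.19 (0.094), whereas Shmt1 at -0.20 ± 0.19 and Mthfd1 at -0.03 ± 0.22 were near 0. The count of 4 became 0 without either untreated clone array or either untreated parental array and 1 without parental RA replicate 1.

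Between the lines under RA, 4 of the 9 genes were lower in the clone: Shmt1, Mthfd2, Aldh1l2 and Phgdh. In this comparison 10.2% of all genes were called lower and 12.9% higher. The cytosolic Shmt1 was 3.06-fold lower in the clone (-1.62 ± 0.27, adjusted p = 0.00652), Mthfd2 2.25-fold (-1.17 ± 0.28, 0.0241), Aldh1l2 2.27-fold (-1.18 ± 0.33, 0.0423) and Phgdh 1.81-fold (-0.86 ± 0.25, 0.0483). Psph was at -0.81 ± 0.31, Mthfd1 at -0.73 ± 0.31, Shmt2 at -0.61 ± 0.39, Psat1 at -0.35 ± 0.29 and Mthfd1l at 0.38 ± 0.31 (adjusted p from 0.102 to 0.43). Both clone arrays read below both parental arrays for 7 genes, against 27.8% of all genes, and above them for Mthfd1l, as for 30.9% of all genes. Median centring gave 1470 higher and 3509 lower calls over all genes here, against 3395 and 2686, and put Mthfd1l at -0.34. The Shmt1 call was kept without each array in turn (adjusted p from 0.0165 to 0.0307) and ended with only the RA groups fitted (0.0553). The Phgdh call ended without each array (0.0848 to 0.144), the Aldh1l2 call without each array except clone RA replicate 2 (0.0613 to 0.155), and the Mthfd2 call without clone RA replicate 1 (0.106), parental RA replicate 1 (0.0741) or parental RA replicate 2 (0.0673).

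Without RA the lines did not differ detectably in any of the 9 genes (0 of 9 called by limma and 0 at an unadjusted p under 0.05, against 9.82% of all genes called). The differences, clone minus parental, ran from -0.63 ± 0.27 for Shmt1 (95% interval -1.26 to 0.01, adjusted p = 0.218) to 0.50 ± 0.31 for Mthfd1l. Both clone arrays read above both parental arrays for 3 genes, against 36.1% of all genes, and below them for Shmt1, as for 24% of all genes. Phgdh and Psat1 were at 0.49 ± 0.25 and 0.45 ± 0.29 (adjusted p = 0.298 and 0.419). The intervals of Shmt2 (-0.88 to 0.98) and Mthfd2 (-0.62 to 0.68) leave room for differences of either sign. Averaged over both treatments, Shmt1 alone of the 9 genes was lower in the clone (-1.12 ± 0.19, adjusted p = 0.00548), and all 4 clone arrays read below all 4 parental arrays, as for 10.1% of all genes. That is 1 of 9 against 11.6% of all genes, a share near the background. The Shmt1 call was kept without each array in turn (adjusted p from 0.00968 to 0.0302).

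Genes with 2 probes allow a check within the array. The second Phgdh probe gave -1.83 ± 0.26 for RA in the clone (adjusted p = 0.0316, adjusted over all probes kept) and the second Psph probe -1.67 ± 0.29 (0.0401), within 0.03 of the first probe. The second Psat1 probe gave -1.18 ± 0.52 (adjusted p = 0.266), and its parental RA arrays read 0.45 and 1.92. The second Shmt1 probe was also lower in the clone, at -1.15 ± 0.39 under RA (0.0868) and -0.82 ± 0.28 averaged over both treatments (0.0738), but passed neither test. On that probe the lines overlapped, with untreated parental replicate 1 at -2.2 and untreated clone replicate 1 at -2.17. The second Mthfd1l probe was at -0.81 ± 0.37 for RA in the clone (0.279). With the mean of a gene's probes, the Psat1 difference with RA in the clone was -1.35 and no longer called (adjusted p = 0.0516).

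**Figure D3:**
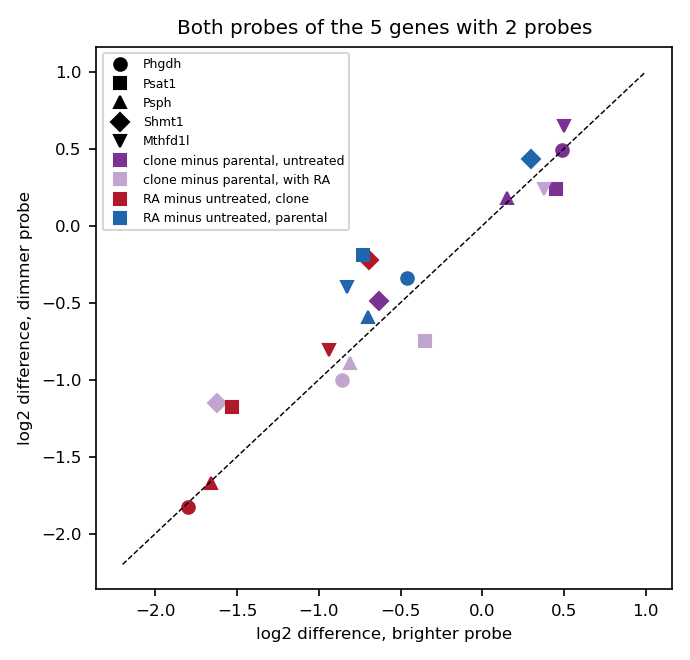
Log2 difference by the dimmer probe (y axis) against that by the brighter probe (x axis) for the 5 genes with 2 probes in 4 comparisons, with the line of equal values dashed. The points have the same sign on both axes in all 20 cases, and the Phgdh and Psph points for RA in the clone lie on the line near -1.8 and -1.7.

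Other genes of the pathway were read from lists. Of 32 tested folate and one-carbon partners, 1 fell and 1 rose with RA in the clone (median -0.32), against 2.05% of all genes lower and 2.58% higher. Cth, which makes cysteine from cystathionine, fell by 3.00 ± 0.31 (limma adjusted p = 0.0117), reading 1.40 and 1.66 with RA and 4.29 and 4.77 without. Gnmt, which methylates glycine, rose by 1.31 ± 0.26 (0.0405). Tyms, which makes thymidylate, was at -0.14 ± 0.30 and did not pass (0.826). Mthfd2l, the mitochondrial paralogue of Mthfd2, was at 0.52 ± 0.31 in the clone (0.383) and at -0.59 ± 0.31 in the parental line (0.47). In the parental line with RA, 0 of the 32 partners passed, against 1.12% of all genes.

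Within each treatment, the counts of partners called between the lines lay near the shares over all genes. Averaged over both treatments, 6 of 32 were lower in the clone, against 11.6% of all genes. In that average 6 were higher, for which no share over all genes is given here. In the untreated clone 3 of 32 were higher and 1 lower, against 6.13% and 3.69% of all genes. Gldc, the glycine decarboxylase of the glycine cleavage system, was lower by a log2 difference of -3.28 ± 0.37 (adjusted p = 0.00239), while the folate receptor genes Folr2 and Folr1 were at 1.62 ± 0.26 (0.00972) and 1.64 ± 0.33 (0.0239) and Mtrr, which reactivates methionine synthase, at 1.67 ± 0.28 (0.0117). Under RA 3 of 32 were higher and 4 lower in the clone, against 12.9% and 10.2% of all genes. Slc19a1, the reduced folate carrier, was at -1.80 ± 0.26 (0.00344), Cth at -2.09 ± 0.31 (0.00411) and Gldc at -1.76 ± 0.37 (0.0157), with Folr1 at 2.05 ± 0.33 (0.00573), Folr2 at 1.41 ± 0.26 (0.00943) and Ggh, which trims folate polyglutamates, at 1.82 ± 0.38 (0.0162). Slc19a1 read 3.12 and 3.28 in the clone with RA, 3.95 and 4.17 in the untreated clone, 4.96 and 5.03 in parental cells with RA and 4.93 and 5.03 in untreated parental cells.

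With RA in the clone, where 2.05% of all genes were lower, 1 of 20 tested genes of serine uptake and use fell, Slc1a5, a carrier of neutral amino acids including serine and glutamine (-1.75 ± 0.32, adjusted p = 0.0343). Srr, the serine racemase, differed between the untreated lines and was higher in the clone (1.86 ± 0.39, adjusted p = 0.0289). Under RA, Srr (1.82 ± 0.39, adjusted p = 0.0174), the mitochondrial carrier gene Sfxn3 (1.91 ± 0.29, 0.00416) and Sdsl, a serine dehydratase relative (2.14 ± 0.29, 0.00307), were higher in the clone, and Slc1a5 lower (-1.44 ± 0.32, 0.0201), which is 3 and 1 of 20 against 12.9% and 10.2% of all genes. Glycolysis, from which serine synthesis branches, had 0 of 12 listed genes past the limma test with RA in either line. Of all genes, 2.05% were lower and 2.58% higher in the clone, and 1.12% were called in the parental line. The median was -0.60 in the clone, against -0.54 for parental cells. Averaged over both lines, all 12 differences with RA were negative (median -0.56). In that average 1 of 12 was called lower, Eno2 (-0.82 ± 0.18, limma adjusted p = 0.046), against 2.7% of all genes. Purine synthesis had 1 of 12 lower with RA in the clone, against the same 2.05%, Prps1, which makes phosphoribosyl pyrophosphate (-1.66 ± 0.29, 0.0318).

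The list of ATF4 and its other known targets had 12 of 30 genes lower with RA in the clone and 0 higher, against 2.05% and 2.58% of all genes, with a median of -1.40 and negative differences for all 30. In the parental line 0 of 30 passed the limma test, against 1.12% of all genes, the median was -0.31, and 20 were negative. Between the lines under RA, 13 of 30 were lower in the clone and 0 higher, against 10.2% and 12.9% of all genes. The list was chosen with earlier results of these data known and is not independent evidence of its direction. Ddit3, the stress factor CHOP, was at -3.07 ± 0.31 in the clone, Atf3, a stress transcription factor, at -2.87 ± 0.28, Nupr1, a stress-induced nuclear protein, at -2.70 ± 0.26 and Chac1, which degrades glutathione, at -2.46 ± 0.26 (adjusted p = 0.0117 each). Atf4 itself read 7.68 and 7.67 in the clone with RA and 8.85 and 8.54 without (-1.02 ± 0.46, adjusted p = 0.256), and 8.96 and 7.82 in the parental line with RA and 9.19 and 8.35 without (-0.38 ± 0.46, 0.793). The interaction, which cannot be told apart from slide row, was called by limma for Ddit3 (-3.92 ± 0.44, adjusted p = 0.0384) and Atf3 (-3.29 ± 0.39, 0.0417). Both calls ended with normexp, with no filter on dim probes, and without any 1 of the 6 arrays other than clone RA, where limma called 0 interactions over all genes (2433 to 3695 at an unadjusted p under 0.05). The count of 12 was 6 without clone RA replicate 1 or either untreated parental array, 0 without either untreated clone array, with no filter, or with only the clone groups, 19 with a trended and robust variance and 20 under the stricter filter that asks for signal well above background on each of the 8 arrays.

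Genes of DNA replication, a demand on one-carbon units, had a median of -0.66 with RA in the clone, where 1 of 18 was lower, against 2.05% of all genes (Rrm2, the ribonucleotide reductase subunit, -1.39 ± 0.25, adjusted p = 0.0336), and 0.53 in the parental line, where 0 of 18 passed the limma test. Between the lines under RA, 7 of 18 were lower in the clone and 0 higher, against 10.2% and 12.9% of all genes. The list median there was -0.92, and 17 differences were negative. Averaged over both treatments, 7 of 18 were lower, against 11.6% of all genes. Without RA, 0 of 18 were called between the lines, against 9.82%. All 18 interactions, which cannot be told apart from slide row, were negative (median -1.14), and 0 were called. Of 6 tested Myc family genes, 1 was called lower in the clone with RA, against 2.05% of all genes, Mycl (limma adjusted p = 0.0256). It read -7.08 and -4.61 on the clone RA arrays and -1.44 and -1 on the untreated clone arrays, and it was well above background on 7 of 8 arrays, so no size is given for its fall. The part of proliferation in the values of the 9 genes was not tested.

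**Figure D4:**
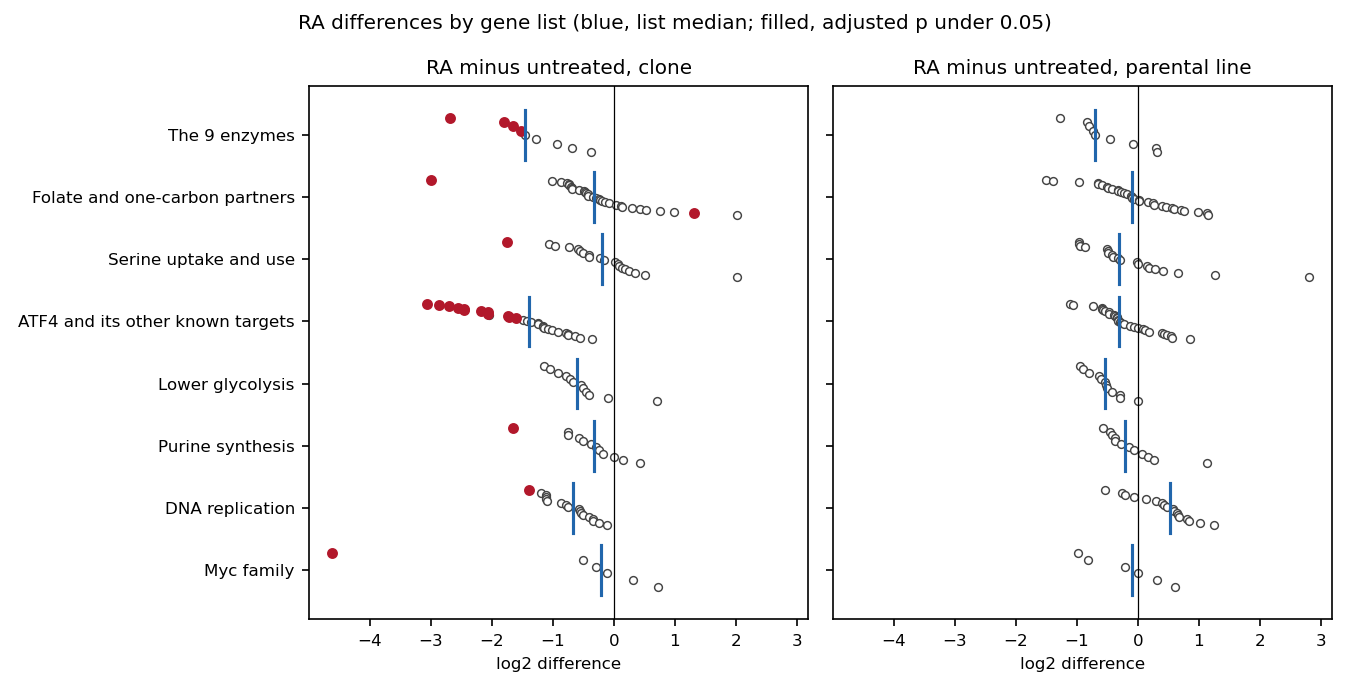
Log2 differences with RA (x axis) in the clone (left) and the parental line (right) for the 9 enzymes and 7 gene lists (y axis), with a point for each gene, filled where the adjusted p was under 0.05, and a blue line at each list's median. In the clone the medians of the 9 enzymes and of the ATF4 list lie at -1.46 and -1.40, and in the parental line no point is filled. The list labelled lower glycolysis also holds genes of upper glycolysis, such as Hk2 and Aldoa.

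Across the 8 arrays the serine branch and Aldh1l2 varied together. Pearson's r was 0.97 between Phgdh and Aldh1l2, 0.94 between Phgdh and Psph and between Psat1 and Psph, and 0.93 between Phgdh and Psat1. The other mitochondrial genes shared much of this. With Phgdh, Psat1, Psph and Aldh1l2, r lay between 0.77 and 0.95 for Shmt2, 0.73 and 0.87 for Mthfd2, and 0.67 and 0.87 for Mthfd1l. The cytosolic Shmt1 and Mthfd1 had r of 0.80 with each other and of 0.77 and 0.66 with Mthfd2. With Phgdh, Psph and Aldh1l2, r lay between 0.45 and 0.47 for Shmt1 and between 0.31 and 0.44 for Mthfd1, and with Psat1 it was 0.19 and 0.16. These are descriptions over 8 arrays that share 4 groups, a slide and the scaling. Among 6500 other named genes above background on all arrays whose group means spanned at least 1 log2 unit, Chac1 was most like Phgdh (r = 0.9882), followed by Akr1b7, Niban1, Btbd9 and Ppp1r16b (0.9842 to 0.9788). Psat1 was most like Acp6, Gfi1, Setd6, Mtres1 and Dhrs7 (0.9843 to 0.9795). Shmt2 was most like Hsd17b14 (0.9967) and Pck2, the mitochondrial phosphoenolpyruvate carboxykinase gene (0.9841), then Prkcd, Galns and Agtrap. Mthfd2 was most like Mlkl (0.9813), Nfil3, Slc20a1, Nde1 and Prxl2c (0.975 to 0.9639).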

How the data were processed

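The deposited intensity values are Feature Extraction (10.7.3.1) output, per the file headers: background was subtracted and a spatial trend removed, and arrays were left unscaled. The log2 values deposited as a series table are the same intensity on a log2 scale less a constant for each array (largest departure 1.95e-06), per a comparison with the scanner tables. Background and outlier flags were used as deposited.

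Here log2 intensity was scaled to the 75th percentile of the 59305 non-control spots. Outlier spots were dropped, spots of a probe averaged, and probes kept if well above background on 2 or more arrays (36636 of 55681). The brightest probe stood for a gene, giving 26262 genes or unnamed transcripts, 15183 of them with a symbol from RefSeq accessions. For 52 of them, none a member, the fit lacked at least 1 array. Precision is limited by signal over background and by the number of arrays.

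Group means were fitted with limma 3.58.1 (R 4.3.3; 4 residual and 3 prior degrees of freedom), and p-values were adjusted over all genes by Benjamini-Hochberg. The fit was tested on simulated data. Members, lists and rules were chosen with earlier results of these data known. Named are all members; for each list and comparison, called genes by smallest adjusted p (at most 6 folate partners, at most 4 per other list), of which a selection is given; always Atf4, Tyms and Mthfd2l; and 5 genes most correlated with each of Phgdh, Psat1, Shmt2 and Mthfd2. The alternatives varied background correction, scaling, filters, outlier spots, probe choice, variance model, groups fitted and slide side, and left out each array. Normexp used the median spot signal. The TATA, CCAAT and GC box searches, and the ATF4 list count under each alternative, were added after seeing the data. Protein sequences were not used here, and 1 gene that the rule names is not reported here.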

Additional observations from a re-analysis of the deposited data

How the results depend on the processing

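Over the alternatives that keep all arrays, 675 results kept direction and side of the threshold, 30 lost the threshold, 15 gained it and 9 reversed; leaving out an array gave 428, 57, 4 and 15. The causes were not tested. Of the 9 enzymes, 4 were called lower with RA in the clone, and the count was 0 with no filter on dim probes and with only the groups compared, 6 with the stricter filter or a trended and robust variance, which added Shmt2 and Mthfd2, 5 with median centring and 0 to 5 with an array left out. The 4 called between the lines with RA became 2 with normexp or with every probe on its own, 1 with no filter, 0 with only the groups compared, 5 with a trended and robust variance and 1 to 3 with an array left out. The 4 called for average RA became 0 with no filter, 7 with a trended and robust variance and 0 to 6 with an array left out. The 1 called for average clone against parental became 2 with the stricter filter or a trended and robust variance, and the 0 for RA in the parental line became 1 with the latter. With slide side as a block there were 4, 3 and 4 calls for RA in the clone, the lines with RA and average RA.

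None of the differences that reversed was called. Between the untreated lines, Mthfd1 was at 0.06 with normexp, Mthfd2 at -0.1 with quantile normalization and -0.1 with median centring, and Shmt2 at -0.08 with median centring. Mthfd1l was at 0.2 in the interaction with quantile normalization and at -0.34 between the lines with RA under median centring. Mthfd1 for average RA was at 0.16 with quantile normalization, and Psat1 for average clone against parental at -0.38 with median centring and -0.1 with the mean of probes. Without an array, the untreated lines differed by -0.14 to 0.24 in Shmt2, -0.29 to 0.24 in Mthfd1, -0.12 to 0.18 in Mthfd2 and -0.05 to 0.52 in Aldh1l2. Likewise the Mthfd1l interaction ran from -0.37 to 0.13, Psat1 for average clone against parental from -0.06 to 0.16 and Mthfd1 for average RA from -0.16 to 0.1.

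Over all genes, with an array left out or a setting changed, the calls for RA in the clone ran from 0 to 3045 (1216 reported), for RA in the parental line from 0 to 803 (294), for the interaction from 0 to 1016 (54), for average RA from 0 to 3209 (1530), for the lines with RA from 2628 to 7285 (6081) and for the untreated lines from 785 to 3354 (2578). The labels carry no replicate numbers, so the only blocked fit was the one by slide side.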
